A study of Homo sapiens with 6 samples.

Results

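Sprouty, SPRED and PEA3-type ETV genes were followed in DMS114 cells, a line established from a human small cell lung cancer, after exposure to β-alanine. The 9 genes were taken by symbol from a table of raw counts for 36458 gene symbols, namely the Sprouty genes SPRY1, SPRY2 and SPRY4, the SPRED genes SPRED1, SPRED2 and SPRED3, and the ETS factor genes ETV1, ETV4 and ETV5. All 9 had a row, and all 9 were among the 17331 genes with enough counts to test. The treated cells received 2.5 mM β-alanine for 48 h, and the control cells received the same volume of vehicle, with 3 libraries in each group. Polyadenylated RNA was sequenced, and all 6 libraries came from this one line.

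The RAS-ERK pathway carries signals from receptor tyrosine kinases such as the FGF receptors through RAS, RAF and MEK to the kinase ERK. Active ERK raises transcription of genes that in turn restrain the pathway, and the Sprouty genes are the classic example. Sprouty proteins act between the receptor and RAF, and SPRED proteins bring the RAS GTPase-activating protein neurofibromin to the membrane, so both dampen RAS. ETV1, ETV4 and ETV5 are transcription factors whose transcripts are common readouts of FGF and ERK activity, and the repressor CIC holds them down until ERK relieves it. DMS114 is known for amplification of FGFR1.

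Library totals ran from 14433801 to 32909568 counts after β-alanine and from 18814876 to 22072654 counts in controls. Levels are given as CPM, counts scaled to a common total after TMM adjustment of each library, so that libraries of different depth can be compared. β-alanine library 1 stood apart on the second principal component of all tested genes, at 20.03 against -7.04 to 2.06 for the other 5 libraries. On the first component, which held 51.2% of the variance and separated the groups, it lay at -6.95, against -20.24 and -20.19 for the other treated libraries and 13.93 to 16.85 for controls. Within a group, pairs of libraries had a chi-square per gene of 1.96 to 4.86, where counting alone gives 1. β-alanine library 1, the smallest library at 14433801 counts, had 4.23 and 4.86 against the other treated libraries and 4.69 to 5.58 against controls. The other treated libraries had 12 to 15.9 against controls. This measure grows with depth, so its values do not compare directly between pairs of different depth. Whether these libraries are separate cultures is not stated in the labels, so the p-values cover only the spread among them, which may be technical. Of the neuroendocrine markers, synaptophysin (SYP) averaged 86.3 ± 4.26 CPM after β-alanine and 61.0 ± 4.23 CPM in controls (SD, n = 3 each), while INSM1 and DDC averaged less than 0.5 CPM in both groups. Of the fibroblast-type matrix genes, COL3A1 averaged 692 ± 50.1 CPM after β-alanine and 876 ± 23.5 CPM in controls, whereas COL1A2 had 0 to 5 reads per library, and YAP1 averaged 129 ± 5.82 CPM after β-alanine and 124 ± 4.91 CPM in controls (SD, n = 3 each). Immune markers summed to at most 0.57 CPM and endothelial markers to at most 0.07 CPM in any library. Of the markers of the labelled cell type, SYP, CHGA, CHGB and UCHL1 were thus present, and INSM1 was close to 0.

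After β-alanine, 3 of the 9 genes rose and 0 fell by edgeR's quasi-likelihood test, at a Benjamini-Hochberg adjusted p under 0.05 over all 17331 genes. SPRY2 rose 2.43-fold, ETV4 rose 1.69-fold and SPRY4 rose 1.35-fold. Over all tested genes, 27.9% passed the same test in either direction, 14.1% as higher and 13.8% as lower, so a count of 3 in 9 is close to the share called in either direction. No SPRED gene passed, and neither did ETV1, ETV5 or SPRY1. The median log2 fold change was 0.12 over the 9 genes and 0.00 over all genes tested (-0.0032 before rounding). All 3 β-alanine libraries lay above all 3 controls for 6 of the 9 genes, against 19.9% of all tested genes; groups did not overlap in either direction for 39.1% of them.

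**Figure D1:**
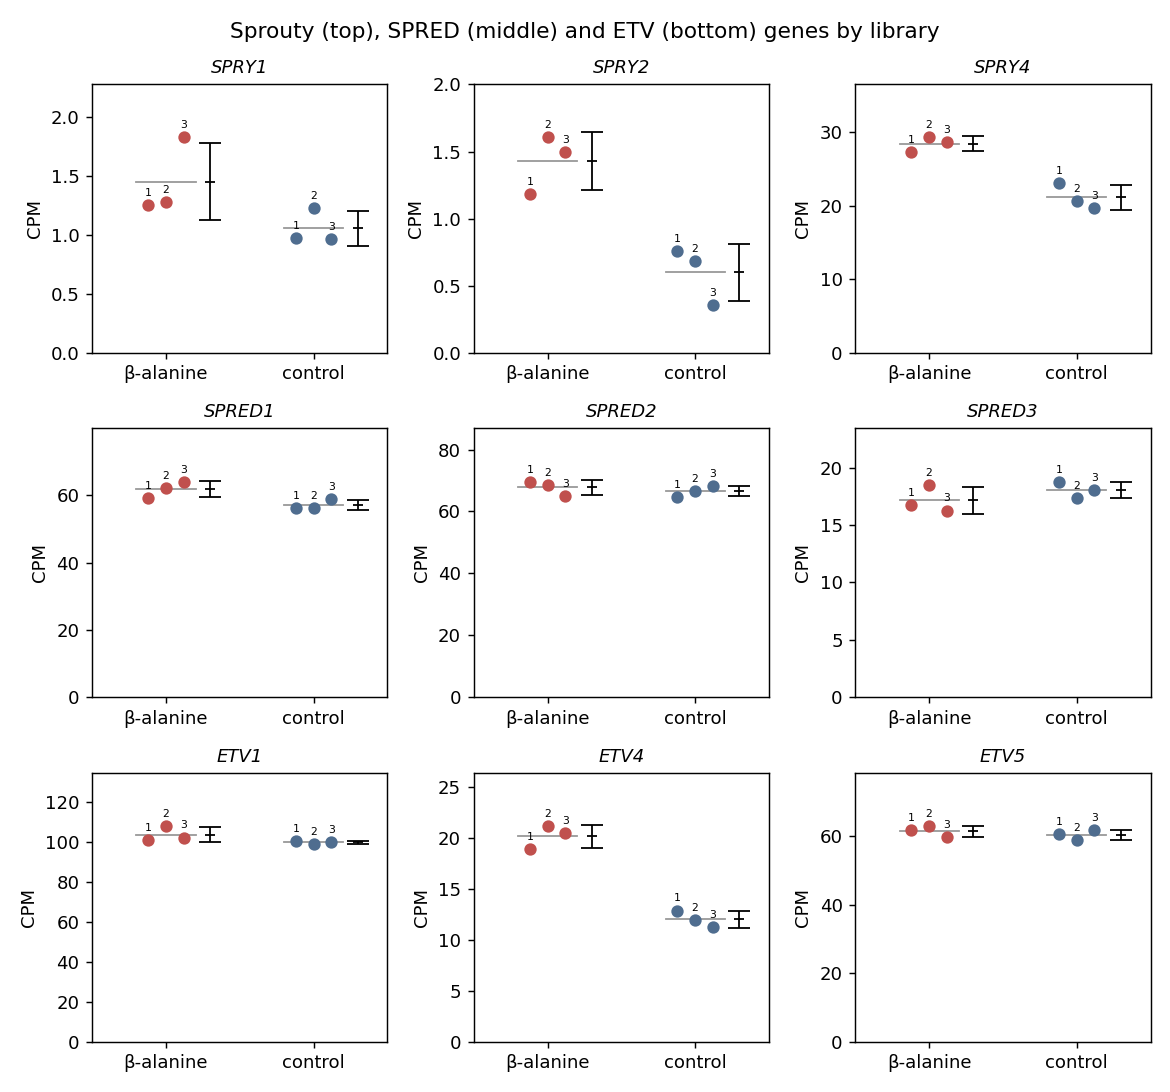
CPM of each gene in each library, with β-alanine libraries on the left and controls on the right; numbers are library numbers, grey lines are group means and black bars show the mean ± SD (n = 3). ETV4 lies at 18.9 to 21.1 CPM after β-alanine, above all controls at 11.2 to 12.9 CPM, whereas the 2 groups overlap for SPRED2, SPRED3 and ETV5.

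The Sprouty genes all had higher values after β-alanine, and 2 of the 3 passed the test. SPRY4 is the most abundant of them in these cells and encodes an inhibitor of receptor signalling upstream of RAF. It had 27.4, 29.3 and 28.7 CPM in β-alanine libraries 1, 2 and 3, against 23.1, 20.7 and 19.7 CPM in control libraries 1, 2 and 3. Every treated library was above every control, and the 2 groups' ranges were 4.27 CPM apart. The log2 fold change was 0.43 ± 0.07 (SE), with an adjusted p of 0.000118 by edgeR. SPRY4 lies on the minus strand of chromosome 5 from 142310430 to 142325021 (GRCh38, RefSeq), and its antisense gene SPRY4-AS1 had 1.45 ± 0.14 CPM after β-alanine and 1.58 ± 0.56 CPM in controls (SD, n = 3 each). The 2 genes share 0 exonic bases in GENCODE release 29, but without a stated strand mode reads cannot be told apart where transcripts overlap.

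SPRY2, which binds the ubiquitin ligase CBL and the adaptor GRB2, was close to the lower limit of what these libraries measure. It had 17, 44 and 50 reads in β-alanine libraries 1, 2 and 3, which is 1.18, 1.60 and 1.50 CPM. In control libraries 1, 2 and 3 it had 14, 15 and 7 reads, which is 0.76, 0.68 and 0.36 CPM. The treated libraries were all above the controls, and control library 3 was the lowest of the 6. Pooled over libraries the level was 1.48 CPM after β-alanine (exact 95% Poisson interval 1.22 to 1.78) and 0.60 CPM in controls (0.42 to 0.83), intervals that cover counting error only and do not overlap. The log2 fold change of 1.28 ± 0.29 (SE) had an adjusted p of 0.00216 by edgeR. Only 0.277% of tested genes had a larger log2 fold change. Without control library 3 the log2 fold change was 1.02 (adjusted p = 0.0225 by edgeR).

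The first annotated start of SPRY2 is shown because this gene had the largest change of the 9 and because its upstream bases hold a match to 1 of the 7 motifs searched. The stretch is the 120 bases before the start on the minus strand, chr13:80341127-80341246 (GRCh38.p14, sequence from RefSeq), with the EGR-type motif in capitals as its reverse complement.
SPRY2: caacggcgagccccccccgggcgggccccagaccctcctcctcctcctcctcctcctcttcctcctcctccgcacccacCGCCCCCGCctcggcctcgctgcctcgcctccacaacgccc
The stretch is 76.7% G and C, and none of it lies in a SPRY2 exon of GENCODE release 29. Exons of other genes were not looked up there.

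SPRY1, a further Sprouty inhibitor, was likewise low. It had 1.25, 1.28 and 1.83 CPM in β-alanine libraries 1, 2 and 3, against 0.97, 1.23 and 0.97 CPM in control libraries 1, 2 and 3. The ranges did not overlap but lay 0.03 CPM apart, and β-alanine library 3 was well above the others. The log2 fold change was 0.49 ± 0.25 (SE), with a 95% interval of -0.03 to 1.01, and did not pass (adjusted p = 0.152 by edgeR). Without β-alanine library 3 it was 0.25. SPRY1 had 18 to 61 reads per library, and its interval includes both 0 and the change seen for SPRY4. SPRY3, the remaining Sprouty gene, averaged 4.42 ± 0.22 CPM after β-alanine and 3.61 ± 0.19 CPM in controls (SD, n = 3 each), and did not pass (adjusted p = 0.145 by edgeR).

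The SPRED genes were well measured, and 0 of the 3 were called by edgeR, by DESeq2 or by limma-voom; SPRED1 alone had an unadjusted p under 0.05 by edgeR. SPRED1 encodes the neurofibromin partner whose loss causes Legius syndrome. It had 59.2, 62.3 and 64.0 CPM in β-alanine libraries 1, 2 and 3, against 56.2, 56.4 and 58.9 CPM in control libraries 1, 2 and 3. The highest control was 0.23 CPM below the lowest treated library. Its log2 fold change was 0.12 ± 0.05 (SE), with a 95% interval of 0.01 to 0.22 and an adjusted p of 0.0856 by edgeR (unadjusted p = 0.0284). With β-alanine library 1 left out, the change was 0.14 and passed (adjusted p = 0.0175 by edgeR).

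SPRED2, a related inhibitor of RAS signalling, had 69.5, 68.6 and 65.1 CPM in β-alanine libraries 1, 2 and 3. In control libraries 1, 2 and 3 it had 64.8, 66.6 and 68.2 CPM, so the groups overlapped. The 95% interval of its log2 fold change ran from -0.08 to 0.12 (adjusted p = 0.77 by edgeR). SPRED3, the least abundant SPRED gene here, had 16.7, 18.5 and 16.3 CPM in β-alanine libraries 1, 2 and 3 and 18.8, 17.4 and 18.1 CPM in control libraries 1, 2 and 3. Its groups overlapped as well, and its interval ran from -0.24 to 0.09 (adjusted p = 0.549 by edgeR). The intervals of SPRED1, SPRED2 and SPRED3 all end below the lower bound for SPRY4, 0.29.

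Among the ETV genes, ETV4 was called and ETV1 and ETV5 were not. ETV4 encodes the PEA3 factor itself. It had 272, 579 and 682 reads in β-alanine libraries 1, 2 and 3, or 18.9, 21.1 and 20.4 CPM. In control libraries 1, 2 and 3 it had 238, 262 and 220 reads, or 12.9, 11.9 and 11.2 CPM. The groups were 6.07 CPM apart, several times the SD within either, which was 1.12 CPM after β-alanine and 0.83 CPM in controls. The log2 fold change was 0.76 ± 0.08 (SE), with an adjusted p of 1.45e-06 by edgeR. By p-value ETV4 stood at place 76 of the 17331 genes, and 1.66% of tested genes had a larger log2 fold change. It lies on the minus strand of chromosome 17 from 43527846 to 43546340 and shares 68 exonic bases with DHX8 on the opposite strand. DHX8, an RNA helicase gene, fell by 0.32 on the log2 scale, to 149 ± 3.68 CPM after β-alanine, against 186 ± 5.54 CPM in controls (SD, n = 3 each; adjusted p = 5.66e-06 by edgeR).

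ETV5, which is often induced alongside ETV4 by FGF signalling, had 61.9, 62.9 and 59.7 CPM in β-alanine libraries 1, 2 and 3. In control libraries 1, 2 and 3 it had 60.6, 58.9 and 61.9 CPM. The groups overlapped, and the 95% interval of the log2 fold change was -0.08 to 0.12 (adjusted p = 0.773 by edgeR). ETV5 shares 164 exonic bases with DGKG on the same strand, which had 0 to 3 reads per library. ETV1, by raw CPM the highest of the 9, had 101, 108 and 102 CPM in β-alanine libraries 1, 2 and 3 and 101, 99.0 and 99.9 CPM in control libraries 1, 2 and 3. Control library 1, at 100.5 CPM, lay just below β-alanine library 1, at 100.9 CPM, and the log2 fold change was 0.06 (95% interval -0.03 to 0.15, adjusted p = 0.362 by edgeR). The intervals of ETV1 and ETV5 both end below the lower bound for ETV4, 0.58.

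**Figure D2:**
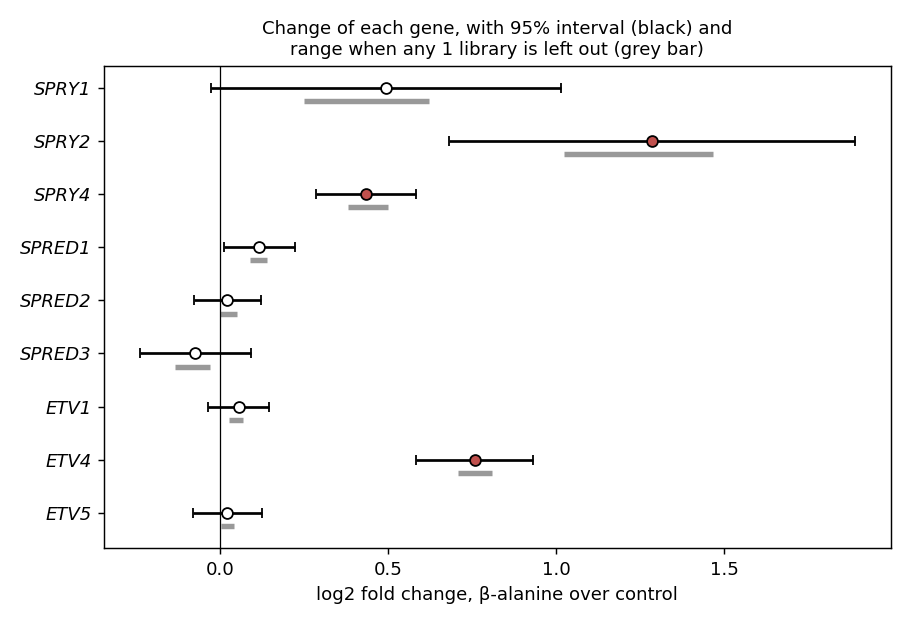
Log2 fold change of β-alanine over control for each gene, with its 95% interval in black, filled points for the 3 genes that passed the test, and a grey bar for the range of values when any 1 library is left out. SPRY2, SPRY4 and ETV4 have intervals well above 0, and the point for ETV4 stays between 0.71 and 0.81 whichever library is left out.

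The 3 genes that rose did so in each treated library, by unequal amounts. Relative to the control mean, on the log2 (CPM + 0.5) scale, ETV4 was 0.64, 0.79 and 0.75 higher in β-alanine libraries 1, 2 and 3. SPRY4 was 0.37, 0.46 and 0.43 higher, and SPRY2 was 0.64, 0.96 and 0.88 higher, in the same order. The added 0.5 CPM is close to the SPRY2 control mean of 0.60 CPM. It therefore shrinks the shifts of SPRY2 far more than those of ETV4 and SPRY4, and sizes on this scale do not compare between genes. For all 3 genes β-alanine library 1, the library that stood apart, had the smallest shift. Without that library the log2 fold changes fitted by edgeR, which are on another scale, were 0.79 for ETV4, 0.45 for SPRY4 and 1.36 for SPRY2. The part of that library's state in these values was not tested.

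Changes within each family were also compared as ratios of 2 genes in the same library. The log2 ratio of ETV4 to ETV5 was -1.71, -1.57 and -1.55 in β-alanine libraries 1, 2 and 3, against -2.24, -2.31 and -2.46 in control libraries 1, 2 and 3. The groups did not overlap, and the difference of 0.73 had p = 0.1 in an exact two-sided permutation test, the smallest p that 3 against 3 libraries allow. The same p was reached by ETV4 over ETV1 (difference 0.70), SPRY2 over SPRY4 (0.89) and SPRY2 over SPRY1 (0.87), while SPRED2 over SPRED1 differed by -0.09 (exact permutation p = 0.3). Adjusted over the 5 ratios, these 4 had p = 0.125 in the exact permutation test, so no ratio could pass at this number of libraries. ETV4 made up 20.7 ± 0.75% of the summed length-scaled ETV1, ETV4 and ETV5 after β-alanine, against 13.8 ± 0.86% in controls (n = 3 each, SD).

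To compare levels between genes, CPM was divided by the exonic length in kb from GENCODE release 29, which may not be the annotation the authors counted on. In controls SPRED2 was highest at 12.9 ± 0.33 CPM per kb (SD, n = 3). ETV5 and ETV1 followed at 10.4 CPM per kb each and did not differ beyond their spread, and SPRED1 came next at 6.92 CPM per kb. ETV4, SPRY4 and SPRED3, at 3.33, 3.22 and 3.08 CPM per kb, had overlapping ranges, as did SPRY1 and SPRY2 at 0.27 and 0.20 CPM per kb. After β-alanine the ranges of ETV4, SPRY4 and SPRED3 no longer overlapped, at 5.59, 4.34 and 2.92 CPM per kb. SPRY2, at 0.47 CPM per kb, and SPRY1, at 0.37 CPM per kb, still overlapped, now with SPRY2 the higher of the pair. SPRY4 made up 83.9 ± 1.72% of the summed length-scaled SPRY1, SPRY2 and SPRY4 after β-alanine, against 87.5 ± 1.87% in controls (n = 3 each, SD). SPRY3 was not part of that sum.

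**Figure D3:**
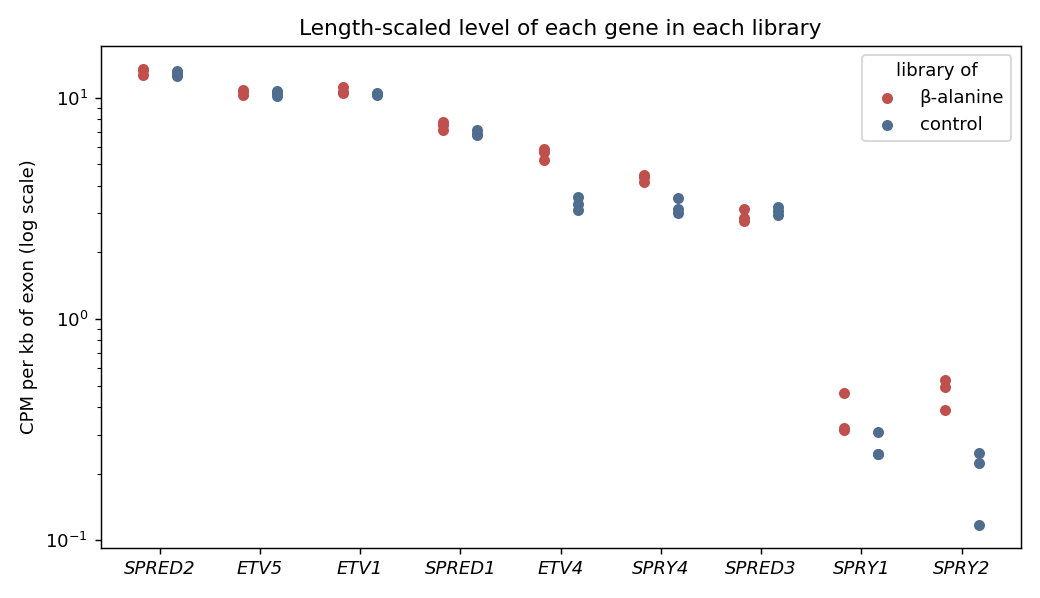
Length-scaled level (CPM per kb of exon, log scale) of each gene in each library, β-alanine left and control right within each gene, ordered by the control mean. SPRED2, ETV5, ETV1 and SPRED1 are highest, with control means of 6.92 CPM per kb or more, and SPRY1 and SPRY2 lie far below the other 7 genes.

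Promoter sequences from RefSeq, each 250 bases before to 50 bases after an annotated start, were available for 7 of the 9 genes in 17 windows. ETV4 and ETV5 had no window, so nothing below describes the promoter of either gene, including that of the called gene ETV4. Both strands were searched for the CIC octamers TGAATGAA and TGAATGGA, the ETS motif CCGGAAGT, the cAMP response element TGACGTCA, the AP-1 motif TGANTCA, the EGR motif GCGGGGGCG and the CArG box of serum response factor. The ETS motif, the cAMP response element and the CArG box were in 0 of the 17 windows. The EGR motif was in 2 windows, the SPRY2 window above and the window of the second SPRY1 start, against 5.07% of all 35116 windows. AP-1 motifs were in 1 SPRED2 and 1 SPRED3 window, against 7.71% of all windows. Each CIC octamer was in 1 window, against 1.65% of all windows for TGAATGAA and 1.03% for TGAATGGA. Both are shown, with the octamer in capitals, because CIC is the known repressor of the ETV genes; neither gene that holds one passed the test.
SPRED3: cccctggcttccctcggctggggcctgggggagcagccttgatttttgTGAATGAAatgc
ETV1: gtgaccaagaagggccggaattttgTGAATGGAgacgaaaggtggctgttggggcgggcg
The SPRED3 stretch is chr19:38389551-38389610 on the plus strand and the ETV1 stretch is chr7:13991516-13991575 on the minus strand (GRCh38.p14). A match describes the letters in the window and is not a binding site.

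The genes around the pathway moved in both directions, and 18.8% to 57.1% of the tested members of each list passed the test, against 27.9% of all tested genes. Of 11 tested FGF and EGF family ligands, 3 rose and 1 fell, with a median log2 fold change of -0.01. FGF19, an endocrine FGF, averaged 13.1 ± 0.63 CPM after β-alanine and 8.36 ± 0.72 CPM in controls (SD, n = 3 each; log2 fold change 0.67 ± 0.10, SE). FGF12, an intracellular FGF homologue that is not secreted, rose by 0.51 ± 0.10 (SE) on the log2 scale. The neuregulin gene NRG2 fell by 0.60 on the log2 scale. FGF17, the remaining ligand called, rose by 1.10 ± 0.29 (SE) from few reads and was named after its values were seen.

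Of 21 tested receptors and docking proteins, 8 fell and 2 rose, with a median of -0.09. FGFR1 averaged 116 ± 6.76 CPM after β-alanine and 143 ± 4.52 CPM in controls (SD, n = 3 each), and fell by 0.31 on the log2 scale (adjusted p = 3.60e-05 by edgeR). ERBB3, a receptor for neuregulins, fell by 0.65 and GAB1, a docking protein below several receptors, fell by 0.56 on the log2 scale. FGFR2, FGFR3 and FGFR4 did not pass, with log2 fold changes of 0.30, -0.09 and -0.01. Without β-alanine library 1 FGFR2 passed, at 0.33 (adjusted p = 0.0497 by edgeR).

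Of the 21 genes of the cascade itself, 8 rose and 3 fell, with a median of 0.10. GRB2, an adaptor that SPRY2 binds, rose by 0.39 ± 0.04 (SE) on the log2 scale, to 670 ± 16.0 CPM after β-alanine, against 512 ± 10.9 CPM in controls (SD, n = 3 each). RPS6KA3, which encodes the ERK-activated kinase RSK2, rose by 0.34 and SHC1, an adaptor, by 0.28. These are transcript levels, and phosphorylation of the kinases is not part of these data. Overlaps were looked up for the 9 genes alone, so reads shared with an overlapping or antisense gene are uncertain for the other named genes.

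Of 8 tested RAS GTPase-activating proteins, 4 fell and 0 rose. DAB2IP fell by 0.40 and RASAL2 by 0.20 on the log2 scale. NF1, which encodes the SPRED partner neurofibromin, had 186 ± 11.4 CPM after β-alanine and 183 ± 9.58 CPM in controls (SD, n = 3 each) and did not pass (adjusted p = 0.666 by edgeR).

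Of 14 tested genes on a list of other ERK outputs, 6 rose and 2 fell, with a median of 0.24. FOSL1, an AP-1 subunit, rose by 1.28 ± 0.30 (SE) and DUSP5, a nuclear ERK phosphatase, by 0.78 ± 0.21 (SE) on the log2 scale. Their control means were low, at 0.48 CPM for FOSL1 and 1.79 CPM for DUSP5. DUSP5 lost its call without β-alanine library 3 (adjusted p = 0.0749 by edgeR) or control library 2 (0.0607), and when the libraries were thinned to equal depth (0.179). CCND1, the cyclin D1 gene, fell by 0.16 on the log2 scale, to 738 ± 3.82 CPM after β-alanine, against 825 ± 5.10 CPM in controls (SD, n = 3 each). DUSP6, the cytoplasmic ERK phosphatase most often read together with SPRY4 and ETV4, averaged 484 ± 2.43 CPM after β-alanine and 458 ± 4.93 CPM in controls (SD, n = 3 each). Its log2 fold change of 0.08 ± 0.03 (SE) did not pass (adjusted p = 0.0865 by edgeR), but passed with library totals unscaled (0.0300) and with thinned libraries (0.0328).

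Of 15 tested ETS factors outside the ETV members, 5 rose and 2 fell. ETS1 rose by 0.46 ± 0.11 (SE), ERG by 1.11 ± 0.28 (SE) from under 1.4 CPM on average, and ERF, an ETS repressor that ERK moves out of the nucleus, fell by 0.16 on the log2 scale, a call lost without β-alanine library 3 (adjusted p = 0.0518 by edgeR). Of 16 regulators and partners, 2 rose and 1 fell. CBL, the ubiquitin ligase that SPRY2 binds, rose by 0.28 ± 0.05 (SE), SIAH2, a ubiquitin ligase, rose by 0.23 ± 0.08 (SE), and the phosphatase scaffold gene PPP2R1A fell by 0.11 on the log2 scale. SIAH2 lost its call without β-alanine library 2 (adjusted p = 0.162 by edgeR), control library 2 (0.155) or control library 3 (0.188). PPP2R1A lost its call without β-alanine library 2 (adjusted p = 0.129 by edgeR), β-alanine library 3 (0.108), control library 2 (0.211) or control library 3 (0.0547). CIC averaged 173 ± 7.46 CPM after β-alanine and 186 ± 2.35 CPM in controls (SD, n = 3 each), with a log2 fold change of -0.11 ± 0.04 (SE) and an adjusted p of 0.0561 by edgeR. Without β-alanine library 1 the CIC change was -0.14 and passed (adjusted p = 0.00146 by edgeR).

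**Figure D4:**
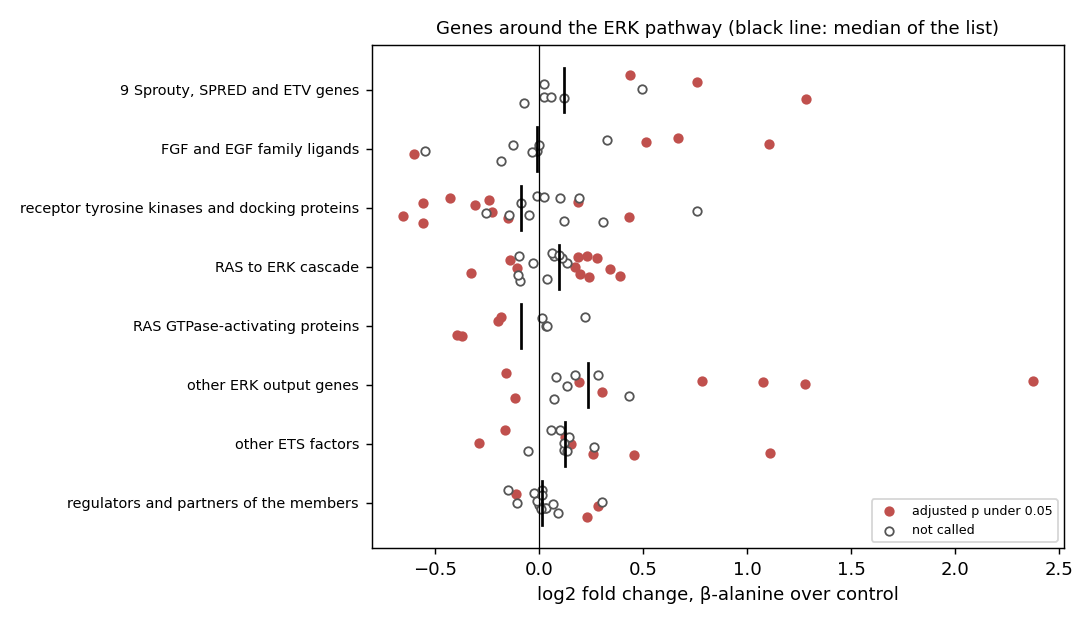
Log2 fold change of β-alanine over control for every tested gene of each list, filled where the adjusted p was under 0.05, with the list's median as a black line and vertical position within a list arbitrary. The median is -0.09 for receptors and docking proteins and 0.24 for other ERK output genes.

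Genes with the profile most like each risen gene were found among 13850 or 13851 tested genes with an average log2 CPM of at least 1, by the root mean square difference over the 6 libraries of log2 (CPM + 0.5) relative to the control mean. For ETV4 they were PTPRN (0.05) and GCH1 (0.07), for SPRY4 they were KIRREL2 (0.04) and IFNGR1 (0.04), and for SPRY2 they were TP53INP2 (0.10) and HES1 (0.10). All 6 passed the test, with log2 fold changes of 0.77, 0.73, 0.42, 0.39, 0.92 and 0.96 in the order given. They were chosen for likeness to called genes over the same 6 libraries, so their calls are not separate evidence. The added 0.5 CPM shrinks the shifts of SPRY2, and its nearest genes had smaller log2 fold changes than its own 1.28.

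Of 19 listed RNAs that lack a poly(A) tail, 13 had a row and only 1, RN7SL1, had enough counts to test. The 13 summed to 10.4 to 15.5 CPM after β-alanine and 6.00 to 6.88 CPM in controls, most of it RN7SL1. RN7SL1 rose by 0.98 ± 0.16 (SE) on the log2 scale and has near-identical copies that can share its reads. The next most abundant, RNU5A-1, averaged 0.46 CPM after β-alanine and 0.40 CPM in controls, with overlapping groups. Of 6 tested neuroendocrine markers 4 rose and 1 fell, with log2 fold changes of 0.50 for SYP, 0.56 for CHGA and 0.32 for CHGB. The marker that fell was NCAM1, named after its values were seen, at 1.48 ± 0.11 CPM after β-alanine and 2.32 ± 0.29 CPM in controls (SD, n = 3 each; log2 fold change -0.67 ± 0.20, SE; adjusted p = 0.0156 by edgeR). It lost its call without β-alanine library 2 (adjusted p = 0.0601 by edgeR), β-alanine library 3 (0.0637) or control library 1 (0.0805), by DESeq2 (0.0653) and with thinned libraries (0.165). The summed neuroendocrine markers ranged from 212 to 240 CPM after β-alanine and from 170 to 176 CPM in controls, and the summed fibroblast-type matrix genes from 880 to 980 CPM after β-alanine and from 1115 to 1158 CPM in controls. Of 4 tested matrix genes 3 fell, COL3A1 by 0.34, DCN by 0.27 and COL1A1 by 0.32 on the log2 scale, and COL1A1 lost its call without β-alanine library 2 (adjusted p = 0.11 by edgeR), control library 2 (0.0788) or control library 3 (0.06). Of 2 tested epithelial markers KRT18 rose, by 0.58 ± 0.11 (SE) on the log2 scale. EPCAM averaged 1.05 CPM after β-alanine and 0.93 CPM in controls and did not pass (adjusted p = 0.668 by edgeR). KRT8 and CDH1 had too few counts to test. In bulk RNA, more cells with a transcript and more RNA per cell cannot be told apart, and the part of these shifts in the values of the 9 genes was not tested.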

How the data were processed

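Per the file headers and values, the deposited table holds 1 column of raw counts for each library, as whole numbers by gene symbol with no normalization. STAR 2.7.3a, featureCounts 2.0.1, Trimmomatic 0.39, bcl2fastq and DESeq2 are listed, with build GRCh38, per the submitters' processing notes. The annotation, the settings and the strand mode were not given in the sources used here. Per the labels' protocols, RNA was purified from Trizol extracts and libraries were made with a TruSeq kit from samples that passed an RNA integrity minimum.

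Groups and replicate numbers came from the sample titles. Genes were filtered with filterByExpr and scaled by TMM, and β-alanine was compared with control by the robust quasi-likelihood test of edgeR 4.0.16 (R 4.3.3), two-sided, all 6 libraries, no covariate, with Benjamini-Hochberg adjustment over all 17331 genes and a threshold of 0.05. Log2 fold changes have β-alanine on top, and their SE is the fold change divided by the root of the F statistic. The procedure was tested on simulated counts. Alternatives were other scaling factors and filters, DESeq2 1.42.0, limma-voom (limma 3.58.1), no robust shrinkage, a replicate block, thinning to 14433801 counts and leaving out each library.

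The 9 genes, the lists and the rules were chosen with earlier results of these data known. Besides the 9 genes, the rule named the 3 called genes with the smallest p in each list and FGFR1 to FGFR4, CIC, NF1 and DUSP6; some genes it also named are not reported here. Positions and promoters came from RefSeq on GRCh38.p14 and exon lengths and overlaps from GENCODE release 29. Figures were drawn with matplotlib 3.10.9.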

Additional observations from a re-analysis of the deposited data

How the results depend on the processing

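SPRY2, SPRY4 and ETV4 kept their direction and their call under every alternative that gave an adjusted p: log2 fold changes ran from 1.02 to 1.46 for SPRY2, 0.37 to 0.50 for SPRY4 and 0.66 to 0.81 for ETV4, with adjusted p-values of at most 0.0225, 0.00347 and 0.000183. DESeq2 gave no adjusted p for SPRY1 and SPRY2 and called 2 of the 9 genes. None of the 9 genes changed sign. Between 3 and 4 of them rose when a library was left out, and 0 fell under any alternative. Over all genes, 2441 rose and 2389 fell; leaving out 1 library gave 1501 to 3204 and 1473 to 3294, with 1501 and 1473 without β-alanine library 2 and 1570 and 1488 without control library 2. Of the other ERK pathway genes, 26 rose and 21 fell; leaving out 1 library gave 15 to 32 and 12 to 23. Those that rose numbered 16 without β-alanine library 3, 15 without control library 2 and 17 by DESeq2, and those that fell 13 without β-alanine library 2 or 3 and 12 without control library 2. Genes with no call and a change near 0 turned sign. FGFR4 did so with library totals (0.0041), without control library 3 (0.0221) and with thinned libraries (0.0037), within a range of -0.0489 to 0.0221 when 1 library was left out. NF1 did so without β-alanine library 3 (-0.0017), within -0.0017 to 0.0738. SPRY4-AS1 did so without control library 2 (0.21) and with thinned libraries (0.0049), within -0.28 to 0.21. The cause was not tested. SIAH2 also lost its call by DESeq2 (adjusted p = 0.0618) and with thinned libraries (0.0891), and PPP2R1A with library totals (0.053). CIC passed with upper-quartile factors (adjusted p = 0.0482 by edgeR), the minimum of 1 CPM (0.042), limma-voom (0.0427), thinned libraries (0.0489) and the replicate block (0.0449). Same-numbered libraries of the 2 groups correlated at 0.11, -0.01 and 0.18 in their deviations from the group means. Differently numbered libraries correlated at -0.17 to 0.03, the highest being β-alanine library 2 with control library 1. These values do not settle whether the numbers pair the samples. The labels state no pairing, so the main fit had no block. With the replicate block the log2 fold changes were 1.29 for SPRY2, 0.44 for SPRY4 and 0.76 for ETV4, and 3 of the 9 genes rose and 0 fell. Depth limits the precision for SPRY1 and SPRY2 most among the 9 genes, at 7 to 61 reads per library.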
